A study of Mus musculus with 24 samples.

Results

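Receptors by which natural killer (NK) cells and related lymphocytes read other cells are described here, as 8 genes outside the Ly49 family: Klrb1, Klrc1, Klrd1, Klrk1, Ncr1, Cd160, Sh2d1b1 and Il2rb. They are 8 of the 770 genes on an nCounter panel that was hybridised to 24 mouse mammary tumour samples. The genes were picked by name, with calls from the same arms in view, so their differences in those contrasts are given as descriptions without a p-value. Each value was set against the 8 negative control probes of its own sample, which have no target in the mouse and measure the background of the assay.

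All tumours grew in female neu-N mice (FVB-Neu-N), 7 to 8 weeks old at implantation, from cells of 1 mammary tumour line, NT2.5, placed in the mammary fat pad. Neu-N mice carry rat neu as a transgene and are tolerant to it. Treatment started 3 days later and ran for 3 weeks. Entinostat (ENT) inhibits the class I histone deacetylases. It was given at 5 mg/kg by gavage each day, and antibodies against PD-1, CTLA-4 or HER2 at 100 µg per mouse. The arms were ENT+CTLA4+HER2 with 2 samples, ENT+PD1+CTLA4, ENT+CTLA4, ENT+PD1 and ENT with 4 each, and vehicle with 4, whose mice received isotype antibodies and 0.5% methylcellulose. A further 2 samples carry the titles of ENT+PD1 replicates 1 and 2 again; they are called the repeat-titled pair, their identity is open, and they entered no fit. The protocol says that studies were done with and without the HER2 antibody, and the arms here follow the titles alone. The labels name whole tumours, while the extraction text closes with a step that isolates immune cells, and the source of the RNA was not settled. Nothing in the labels ties a sample to a separate animal beyond a separate tumour, so the p-values speak of the spread among these tumours, which may be technical.

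NK cells weigh activating against inhibitory receptors. Klrk1 encodes NKG2D, an activating receptor for stress-induced ligands, and Ncr1 encodes NKp46, an activating receptor that marks mouse NK cells and some innate lymphoid cells. Klrd1 (CD94) and Klrc1 (NKG2A) form a heterodimer that binds Qa-1, the product of H2-T23, and inhibits the cell. Klrb1, which RefSeq lists also as Nkrp1g, is a C-type lectin receptor of the Nkrp1 family. Cd160 is a receptor for the herpesvirus entry mediator, Tnfrsf14. Sh2d1b1 (EAT-2) is an adaptor that carries the signal of SLAM-family receptors. Il2rb is the beta chain that the interleukin-2 and interleukin-15 receptors share. Activated T cells also carry Il2rb and several of the others, so in a whole tumour these genes do not mark NK cells alone. In bulk RNA, fewer cells of a type and less RNA per cell cannot be told apart.

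Klrb1, Klrc1, Klrd1 and Klrk1 lie on mouse chromosome 6, in the region known as the NK gene complex. Ncr1 is on chromosome 7, Cd160 on chromosome 3, Sh2d1b1 on chromosome 1 and Il2rb on chromosome 15. The accession that the panel gives for each probe matched the RefSeq symbol for 8 of 8 genes. Klrc1 has close relatives in Klrc2 and Klrc3, and whether its probe also reads them was not tested.

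RefSeq promoter windows (build GRCm38.p6, 250 bases before to 50 after the start of transcription) were at hand for 6 of the 8 genes. The windows below are those of Klrb1, Cd160 and Sh2d1b1, whose values ran together across samples, and of Ncr1, whose differences between arms were small. Capitals mark matches, on either strand, to 4 motifs: TGTGGT, which RUNX factors bind, GGTGTGA for T-box factors, GGAAGT for ETS factors and TTCNNNGAA for STAT factors. No marked matches overlap one another.
Klrb1 (chr6:128723048-128723347, minus strand): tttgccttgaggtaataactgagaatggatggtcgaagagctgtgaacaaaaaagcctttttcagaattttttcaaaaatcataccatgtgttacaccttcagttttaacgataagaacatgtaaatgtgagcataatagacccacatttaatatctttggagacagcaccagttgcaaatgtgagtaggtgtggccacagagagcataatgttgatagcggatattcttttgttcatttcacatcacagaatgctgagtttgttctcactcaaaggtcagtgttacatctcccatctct
Cd160 (chr3:96814472-96814771, minus strand): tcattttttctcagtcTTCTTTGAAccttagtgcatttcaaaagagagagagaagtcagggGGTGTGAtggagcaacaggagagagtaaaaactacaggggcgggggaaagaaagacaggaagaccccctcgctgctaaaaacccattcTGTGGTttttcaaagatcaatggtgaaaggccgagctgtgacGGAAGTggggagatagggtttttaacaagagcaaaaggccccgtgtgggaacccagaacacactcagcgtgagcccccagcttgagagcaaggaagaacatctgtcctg
Cd160, second start (chr3:96829302-96829601, minus strand): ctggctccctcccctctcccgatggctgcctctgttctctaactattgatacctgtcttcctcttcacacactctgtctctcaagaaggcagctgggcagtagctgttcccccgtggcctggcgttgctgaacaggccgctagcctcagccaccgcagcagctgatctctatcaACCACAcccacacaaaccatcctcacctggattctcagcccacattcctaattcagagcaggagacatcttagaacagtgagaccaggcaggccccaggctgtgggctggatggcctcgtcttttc
Sh2d1b1 (chr1:170277068-170277367, plus strand): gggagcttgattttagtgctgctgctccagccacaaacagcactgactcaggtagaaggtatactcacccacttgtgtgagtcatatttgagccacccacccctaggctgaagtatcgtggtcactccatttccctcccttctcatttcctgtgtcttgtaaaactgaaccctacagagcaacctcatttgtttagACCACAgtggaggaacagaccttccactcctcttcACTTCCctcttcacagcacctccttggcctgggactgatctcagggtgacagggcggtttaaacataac
Ncr1 (chr7:4337465-4337764, plus strand): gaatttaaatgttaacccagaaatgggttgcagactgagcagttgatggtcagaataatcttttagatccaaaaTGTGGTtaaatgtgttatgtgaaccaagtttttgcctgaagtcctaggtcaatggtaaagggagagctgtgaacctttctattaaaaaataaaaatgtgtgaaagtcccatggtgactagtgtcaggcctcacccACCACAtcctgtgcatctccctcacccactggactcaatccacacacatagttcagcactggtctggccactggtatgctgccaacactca

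The RUNX letters stood in a window of 5 of the 6 genes. By window they stood in 7 of the 8 of these genes, against 16.8% of the 32851 windows in the table. The windows of Ncr1 largely overlap, so they do not count separately. They were in both Cd160 windows, at −101 and −76 from the start, in Sh2d1b1 at −54, in Klrk1 at −129 and in Klrc1 at −87. The Ncr1 window shown had a pair of them, at −176 and −41. Klrb1 was the exception, with none of the 4 motifs. The T-box letters (3.98% of all windows) and the STAT letters (8.30%) occurred in 1 Cd160 window, at −189 and −234. The ETS letters (23.8%) occurred in that window at −59 and in Sh2d1b1 at −19. Klrb1, Cd160 and Sh2d1b1 had no motif of the 4 in common.

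The 8 genes were among the weakest that could be tested. Totals ran from 226863 to 483418 counts per sample, and a normalized count of at least 20 in at least 4 samples kept 621 genes, all 8 among them. Klrb1 and Klrk1 reached 20 in 6 samples each, Klrd1 in 5 and Ncr1 in 4. Without the ENT+PD1 samples none of these would have passed the filter, and ENT+PD1 is the arm where Klrb1 and Klrk1 had their highest means. By median level over the 24 samples, Il2rb was in place 459 of the 621, Sh2d1b1 526, Klrc1 530, Cd160 567, Klrb1 586, Ncr1 596, Klrd1 601 and Klrk1 604. Of the 192 values (8 genes in 24 samples), 120 (62.5%) lay above the mean plus 2 SD of the negative probes of their sample, against 76.7% of the values of all 770 genes. Il2rb passed in 24 of 24 samples, Klrc1 and Sh2d1b1 in 20 each, Cd160 in 14, Klrk1 in 13, Klrd1 in 11, Ncr1 in 10 and Klrb1 in 8.

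The background itself differed between the runs. Per the file headers the samples lay on 2 cartridges of 12. The first held ENT+PD1, ENT and vehicle, and the second held the arms with CTLA-4 antibody and the repeat-titled pair. The negative probes averaged 5.01 ± 0.568 counts per sample on the second cartridge and 8.65 ± 1.17 on the first (SD, n = 12 each). After the authors' scaling factor these were 5.32 ± 1.11 and 9.02 ± 1.99. Within the second cartridge, ENT+CTLA4+HER2 had the largest factors, 1.70 and 1.29, against 0.777 to 1.04 in ENT+CTLA4, so that its scaled negative probes stood at 7.86 and 6.62, against 3.59 to 5.47. An arm with CTLA-4 antibody and vehicle, ENT or ENT+PD1 cannot be told apart from their cartridges.

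**Figure D1:**
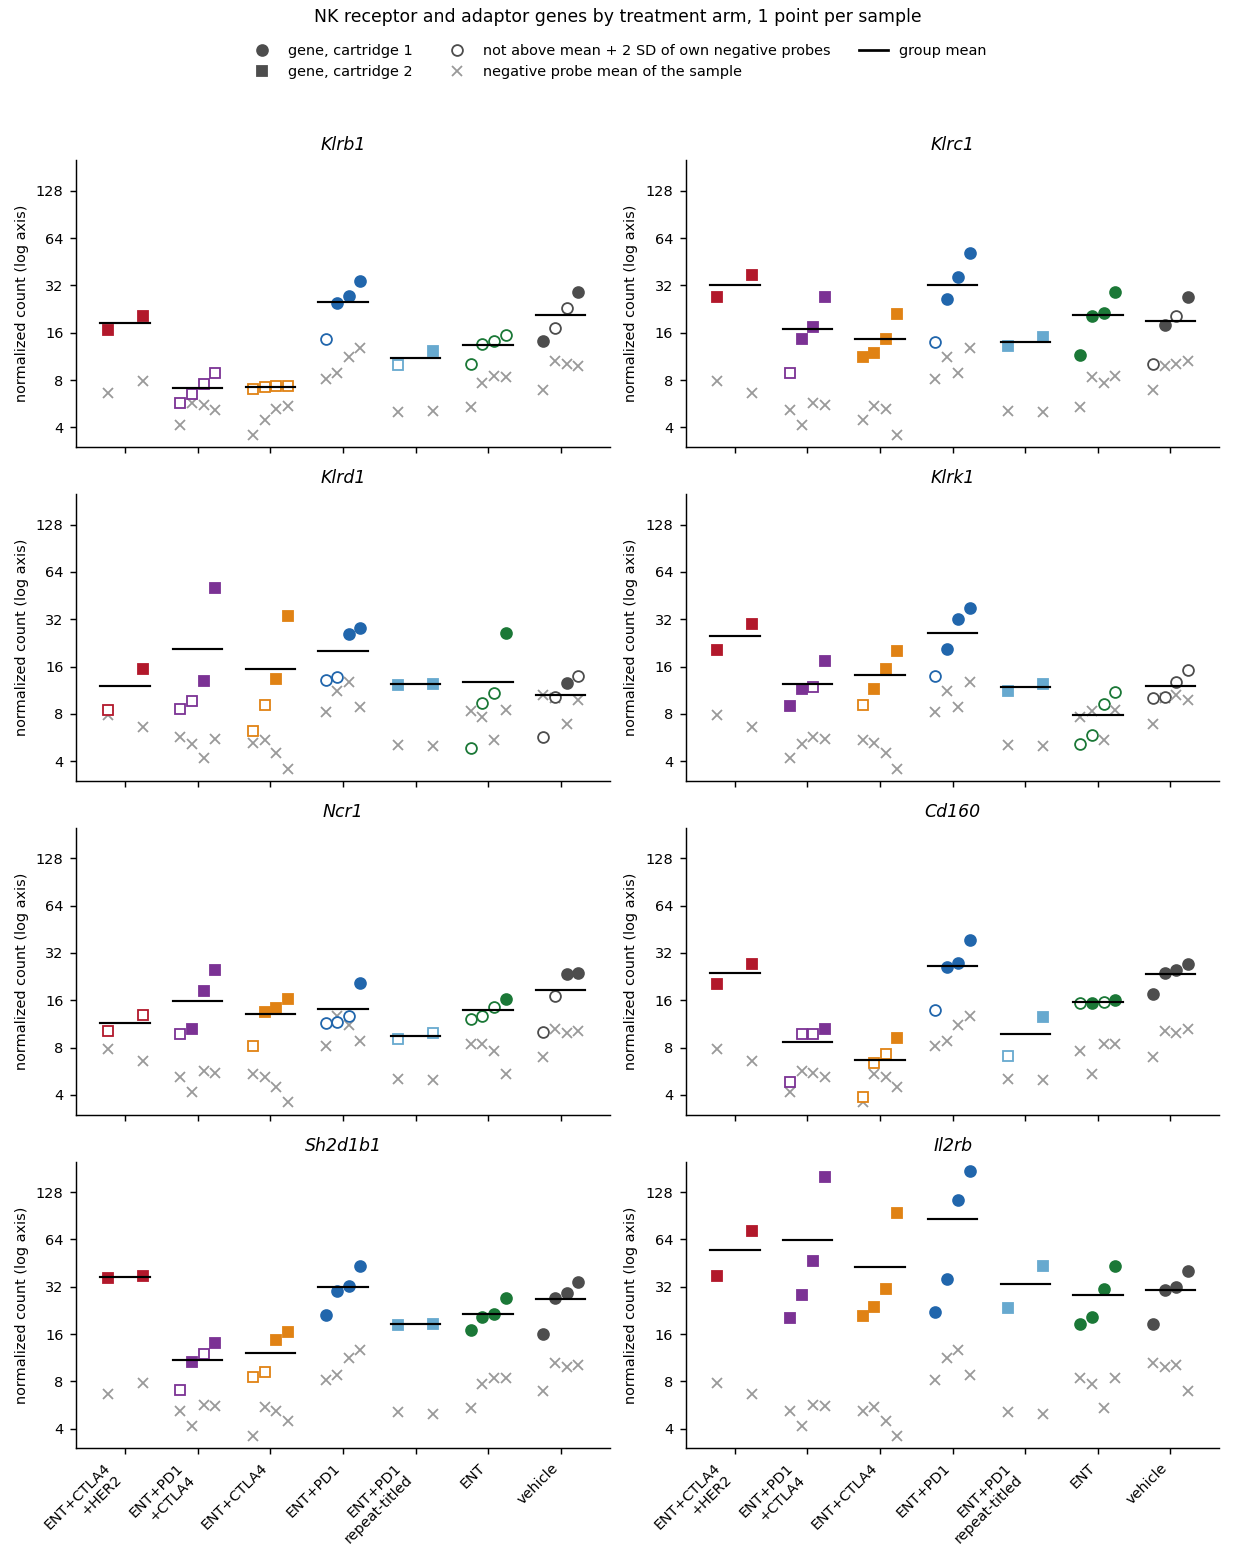
Normalized count of each gene (log axis) by arm, 1 point per sample (circles cartridge 1, squares cartridge 2), with the arm mean as a bar and the scaled mean of the sample's negative probes as a grey cross. Open symbols mark values not above the mean plus 2 SD of the negative probes: all 8 Klrb1 values of ENT+PD1+CTLA4 and ENT+CTLA4 are open, and no Il2rb value is.

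The lectin receptor Klrb1 had the lowest values in the arms with both ENT and CTLA-4 antibody but no HER2 antibody. In the order of the replicate numbers, its normalized counts were 20.4 and 16.8 in ENT+CTLA4+HER2, 7.57, 8.82, 5.68 and 6.49 in ENT+PD1+CTLA4, and 7.18, 7.29, 7.30 and 6.99 in ENT+CTLA4. They were 27.6, 14.7, 33.9 and 24.9 in ENT+PD1, 15.6, 10.1, 14.1 and 13.6 in ENT, and 29.1, 17.1, 14.3 and 22.8 in vehicle. All 8 samples of ENT+PD1+CTLA4 and ENT+CTLA4 lay below each sample of the other arms. The repeat-titled pair, on the same cartridge as these 8, stood at 12.2 and 9.96, above all of them. In raw counts the same 8 samples gave 6 to 10 and the ENT+CTLA4+HER2 samples 12 and 13, so the gap was a few counts.

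Cd160 was ordered alike. Its normalized counts were 20.4 and 27.1 in ENT+CTLA4+HER2, 9.73, 10.6, 4.87 and 9.73 in ENT+PD1+CTLA4, and 9.23, 7.29, 6.39 and 3.88 in ENT+CTLA4. They were 27.6, 13.9, 38.6 and 25.9 in ENT+PD1, 15.6, 15.5, 16.1 and 15.3 in ENT, and 24.9, 27.1, 17.6 and 23.98 in vehicle. The 4 ENT samples lay within 1 normalized count of each other and below the 4 vehicle samples. The repeat-titled pair had 7.11 and 12.5. The highest value was in ENT+PD1 replicate 5, where Klrb1 and Sh2d1b1 also peaked. That sample had the highest scaled negative probes of the 24, at 12.7. As ratios to the negative probes, Klrb1 was highest in vehicle replicate 1 (2.95). On that scale Cd160 and Sh2d1b1 were highest in ENT+CTLA4+HER2 replicate 2 (4.10 and 5.46).

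The adaptor Sh2d1b1 read 37.4 and 36.2 in ENT+CTLA4+HER2, 14.1, 7.05, 10.6 and 11.9 in ENT+PD1+CTLA4, and 16.4, 14.6, 9.12 and 8.54 in ENT+CTLA4. It read 32.2, 21.2, 43.3 and 30.1 in ENT+PD1, 21.4, 17.0, 27.2 and 20.5 in ENT, and 29.1, 27.1, 15.95 and 34.3 in vehicle. The samples of ENT+PD1+CTLA4 lay below those of vehicle, ENT and ENT+PD1, and those of ENT+CTLA4 overlapped vehicle at its lowest sample. The repeat-titled pair, at 18.3 and 18.7, lay above both of these arms and below the HER2 arm.

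Il2rb was the strongest of the genes and uneven within arms. It read 37.4 and 72.3 in ENT+CTLA4+HER2, 160.1, 20.3, 28.4 and 46.5 in ENT+PD1+CTLA4, and 30.8, 20.8, 23.7 and 94.8 in ENT+CTLA4. It read 35.6, 22.04, 115 and 174 in ENT+PD1, 18.5, 31.0, 43.4 and 20.5 in ENT, and 30.5, 18.6, 40.3 and 31.97 in vehicle. Single samples stood far above the rest in 3 arms: ENT+PD1 replicates 5 and 6, ENT+CTLA4 replicate 6 and ENT+PD1+CTLA4 replicate 1. ENT and vehicle had none above 43.4. The repeat-titled pair had 23.4 and 43.6.

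The CD94 gene Klrd1 was high in the same samples. It read 8.50 and 15.5 in ENT+CTLA4+HER2, 50.8, 9.70, 13.0 and 8.65 in ENT+PD1+CTLA4, and 13.3, 6.25, 9.12 and 33.4 in ENT+CTLA4. It read 13.8, 13.1, 25.8 and 28.0 in ENT+PD1, 4.86, 10.8, 26.2 and 9.37 in ENT, and 13.8, 5.71, 12.6 and 10.3 in vehicle. ENT replicate 3 was also high, which in Il2rb was the highest of its arm. In the 10 comparisons made, the arms overlapped for Klrd1 and for Il2rb.

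Klrc1, the NKG2A partner of Klrd1, read 27.2 and 37.4 in ENT+CTLA4+HER2, 27.0, 8.82, 14.6 and 17.3 in ENT+PD1+CTLA4, and 11.3, 14.6, 11.9 and 21.0 in ENT+CTLA4. It read 26.4, 13.9, 51.5 and 36.3 in ENT+PD1, 20.4, 11.6, 29.3 and 21.3 in ENT, and 18.0, 27.1, 10.1 and 20.6 in vehicle. Its peak in ENT+PD1 replicate 5, the sample with the highest scaled negative probes, it shared with Klrb1, Cd160 and Sh2d1b1. Its high value in ENT+PD1+CTLA4 replicate 1 it shared with Klrd1 and Il2rb. As a ratio to the negative probes it was highest in ENT+CTLA4 replicate 6 (5.84). Arms overlapped for Klrc1 in each comparison but ENT+CTLA4+HER2 against ENT+CTLA4.

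The NKG2D gene Klrk1 read 20.4 and 29.7 in ENT+CTLA4+HER2, 17.3, 11.5, 8.93 and 11.9 in ENT+PD1+CTLA4, and 15.4, 11.5, 9.12 and 20.2 in ENT+CTLA4. It read 20.7, 13.9, 37.5 and 32.2 in ENT+PD1, 5.83, 9.29, 11.1 and 5.11 in ENT, and 15.2, 12.8, 10.1 and 10.3 in vehicle. The 4 ENT+PD1 samples lay above the 4 ENT samples, of which none passed the mean plus 2 SD of its negative probes, and in vehicle none passed either. In ENT the ratio to the mean negative probe was 0.666 to 1.71, so Klrk1 was not measured above background there.

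The NKp46 gene Ncr1 had log2 differences between −0.45 and 0.20 in the 10 comparisons. It read 10.2 and 12.9 in ENT+CTLA4+HER2, 24.9, 9.70, 10.6 and 18.4 in ENT+PD1+CTLA4, and 14.4, 13.5, 8.21 and 16.3 in ENT+CTLA4. It read 12.6, 11.4, 11.7 and 20.8 in ENT+PD1, 12.6, 16.3, 12.1 and 14.5 in ENT, and 23.5, 17.1, 10.1 and 23.98 in vehicle. The arms overlapped in each of the 10 comparisons, and 14 of the 24 values were not above their background limit.

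By arm mean, ENT+PD1 came first for Klrb1 (25.3 ± 8.01), Cd160 (26.5 ± 10.1), Klrk1 (26.0 ± 10.7) and Il2rb (86.7 ± 71.3), all as SD with n = 4. ENT+CTLA4+HER2 came first for Sh2d1b1 (36.8 ± 0.870) and Klrc1 (32.3 ± 7.25, n = 2), ENT+PD1+CTLA4 for Klrd1 (20.5 ± 20.3, n = 4) and vehicle for Ncr1 (18.7 ± 6.53, n = 4). The order had a clear gap for Klrb1, where ENT+CTLA4 (7.19 ± 0.144) and ENT+PD1+CTLA4 (7.14 ± 1.36) did not differ from each other beyond their spread and the next arm up among those fitted was ENT (13.3 ± 2.33). For Klrd1, Ncr1 and Il2rb the means of neighbouring arms among those fitted lay within 1 SD of each other.

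Differences between arms come from a single limma fit to log2(normalized count + 1) over 22 samples in 6 arms, with Benjamini-Hochberg adjustment over the 621 genes and calls at an adjusted p under 0.05. The pseudocount pulls differences of low values toward 0. The values also hold the background, which itself differed between arms, so a log2 difference can be larger or smaller than that of the ratios to the negative probes.

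Adding anti-HER2 to ENT+CTLA4 went with higher Cd160, Sh2d1b1 and Klrb1. Both arms lay on 1 cartridge. The log2 difference was 1.72 ± 0.37 for Cd160, 1.57 ± 0.35 for Sh2d1b1 and 1.25 ± 0.32 for Klrb1 (SE, n = 2 and 4). In ENT+CTLA4, 0 of 4 Klrb1 values, 1 of 4 Cd160 values and 2 of 4 Sh2d1b1 values were above the background limit, so these differences are largely set against the background. These 3 of the 8 were called, where 2.25% of the 621 genes were, and for 5 of the 8, with Klrc1 (1.11 ± 0.49) and Klrk1 (0.82 ± 0.40), both ENT+CTLA4+HER2 samples lay above all ENT+CTLA4 samples, as 22.5% of the genes did. The genes were chosen with this contrast known, and nothing is read from these counts. Klrd1, Ncr1 and Il2rb overlapped, with log2 differences of −0.14 ± 0.69, −0.14 ± 0.39 and 0.57 ± 0.80. Leaving out ENT+CTLA4+HER2 replicate 2 left 0 of the 3 calls, as did leaving out ENT+CTLA4 replicate 5 or 6, and 1 was left without ENT+CTLA4+HER2 replicate 1. With either HER2 sample left out, the lone sample is assumed to vary like the other arms. Median rescaling of the samples also left 0.

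Against the negative probes of each sample, the same 3 genes stayed apart. The ratios come from the same values that were known when the genes were chosen, so they are a description and no separate test. ENT+CTLA4+HER2 had a mean ratio of 3.35 for Cd160, against 1.43 in ENT+CTLA4, of 5.11 for Sh2d1b1, against 2.63, and of 2.57 for Klrb1, against 1.57. Both samples of the HER2 arm had ratios above each ENT+CTLA4 sample for these 3 genes and for 1.77% of the 621 genes, while 33.7% had ratios below. Klrc1 and Klrk1 overlapped on this measure. The summed Ly49 probes (12 genes of another NK receptor family) ran from 273.6 to 281 in ENT+CTLA4+HER2 and from 94.2 to 179 in ENT+CTLA4, and the 9 T cell genes summed to 148 and 318 against 54.8 to 627. Without overlap, the HER2 arm also had higher sums of 5 neutrophil genes (12572 and 1879, against 831 to 1727), of 3 dendritic cell genes (79.9 and 71.0, against 54.8 to 68.7) and of 8 cytotoxic effectors (141 and 148, against 63.5 to 117). So had 6 other NK and innate lymphoid genes (443 and 374, against 287 to 337) and 10 receptor ligands and presenters (6255 and 8098, against 4599 to 5738). The sums also hold the background, whose scaled level was higher in the HER2 arm. Of the 8 cytotoxic effectors, 2 lay above the background limit in each HER2 sample. Of the 6 NK and innate lymphoid genes, 2 and 5 did, against 4, 3, 3 and 3 in ENT+CTLA4. Gata3, which mammary epithelium also uses, was the strongest of these 6, with a median of 264 over the 24 samples. The next were Il7r at 20.9 and Itga2 at 15.4. Macrophage genes summed to 4239 and 3678, against 3050 to 4257. Their part in these differences was not tested.

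**Figure D2:**
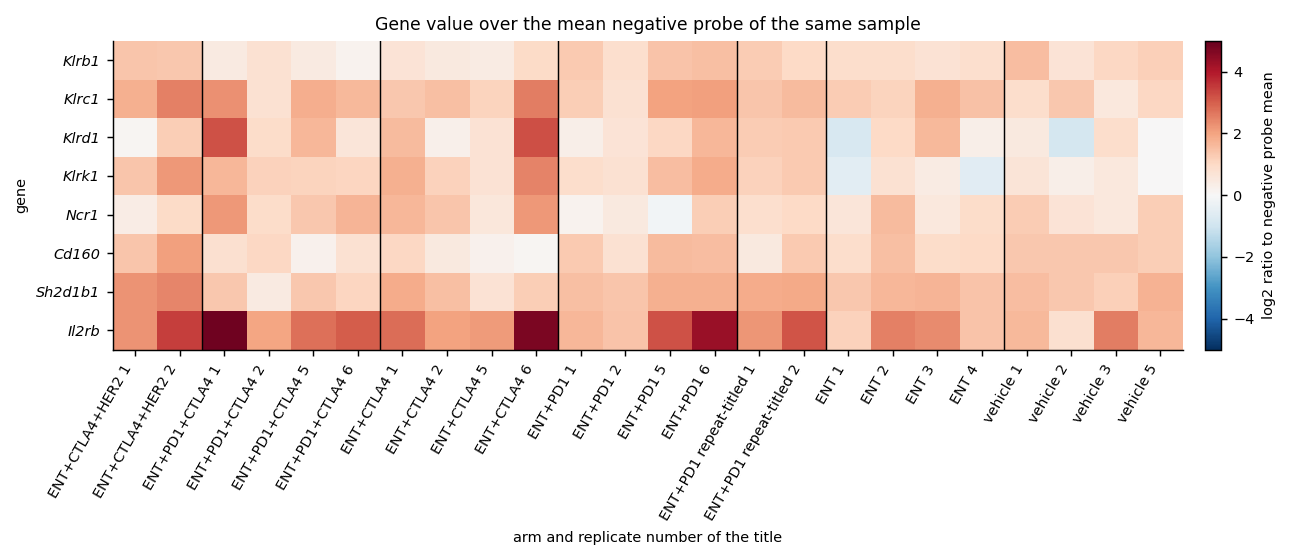
Log2 ratio of each gene (rows) to the mean negative probe of its sample, for the 24 samples (columns, by arm and replicate number). Ratios run from 0.543 for Klrd1 in vehicle replicate 2 to 28.9 for Il2rb in ENT+PD1+CTLA4 replicate 1, and Klrb1 ratios stay between 1.14 and 1.95 in ENT+PD1+CTLA4 and ENT+CTLA4.

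In ENT+CTLA4 against vehicle, which lay on different cartridges, Cd160 was lower by a log2 difference of −1.70 ± 0.30 and Klrb1 of −1.37 ± 0.26 (SE, n = 4 each). These 2 of the 8 were called, where 1.45% of the genes were, all of them lower. The same 2 had no overlap between arms, where 7.89% of the genes were lower without overlap. Sh2d1b1, at −1.07 ± 0.28, overlapped by 1 sample, and 0 of the 8 were higher without overlap (4.83% of the genes). The contrast chose the genes, and nothing is read from these counts. Leaving out vehicle replicate 1 or 5 ended both calls, as did the cartridge block that counts the repeat-titled pair as ENT+PD1.

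The background differed in the same direction, with scaled negative probes of 4.69 ± 0.842 in ENT+CTLA4 and 9.36 ± 1.64 in vehicle. As ratios to it, Cd160 averaged 1.43 and 2.50 in these arms and stayed without overlap, 1 of 2 genes of the 621 (0.322%) with lower ratios. Klrb1, at 1.57 and 2.22, and Sh2d1b1, at 2.63 and 2.80, overlapped. Ratios ran the other way for Klrk1, 3.23 in ENT+CTLA4 and 1.31 in vehicle without overlap, which was so for 44.8% of all genes. In ENT+CTLA4, 1 of 4 Cd160 values and 0 of 4 Klrb1 values exceeded the background limit. These ratios too come from the contrast that chose the genes and are a description.

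ENT+PD1+CTLA4 gave much the same picture against vehicle. The log2 difference was −1.39 ± 0.26 for Klrb1, −1.36 ± 0.30 for Cd160 and −1.20 ± 0.28 for Sh2d1b1 (SE, n = 4 each), and 3 of the 8 were called, where 2.09% of the genes were. The same 3 were lower without overlap, as were 7.57% of the genes, and 0 of the 8 were higher (0.966%). This contrast too chose the genes. Both comparisons share the vehicle samples and the cartridge difference. As ratios to the negative probes, Cd160 alone of the 3 stayed without overlap (1.67 in ENT+PD1+CTLA4 and 2.50 in vehicle, with 0.322% of the genes lower without overlap). Klrk1 was higher without overlap, at 2.39 and 1.31, as were 29.6% of the genes. Leaving out ENT+PD1+CTLA4 replicate 5 or vehicle replicate 1 or 5 ended all 3 calls, and without vehicle replicate 2 or ENT+PD1+CTLA4 replicate 2, 1 was left.

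ENT+PD1+CTLA4 against ENT+PD1 sets the arm with both antibodies beside the arm with PD-1 antibody, again across cartridges. Klrb1 was lower by a log2 difference of −1.65 ± 0.26, Cd160 of −1.46 ± 0.30 and Sh2d1b1 of −1.45 ± 0.28 (SE, n = 4 each). These 3 of the 8 were called and 3.22% of all genes, and the same 3 were lower without overlap, as were 7.73% of the genes. ENT+PD1 had the highest scaled negative probes of any arm, 10.2 ± 2.12, against which ENT+PD1+CTLA4 had 5.14 ± 0.685. On the ratio scale Klrb1 (1.39 in ENT+PD1+CTLA4 and 2.44 in ENT+PD1) and Sh2d1b1 (2.13 and 3.07) stayed without overlap, where 0.483% of the genes did. The genes were chosen with this contrast known. Median rescaling and a cartridge block, fitted with the repeat-titled pair counted as ENT+PD1, each left 0 calls, and without ENT+PD1 replicate 5, 1 was left.

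**Figure D3:**
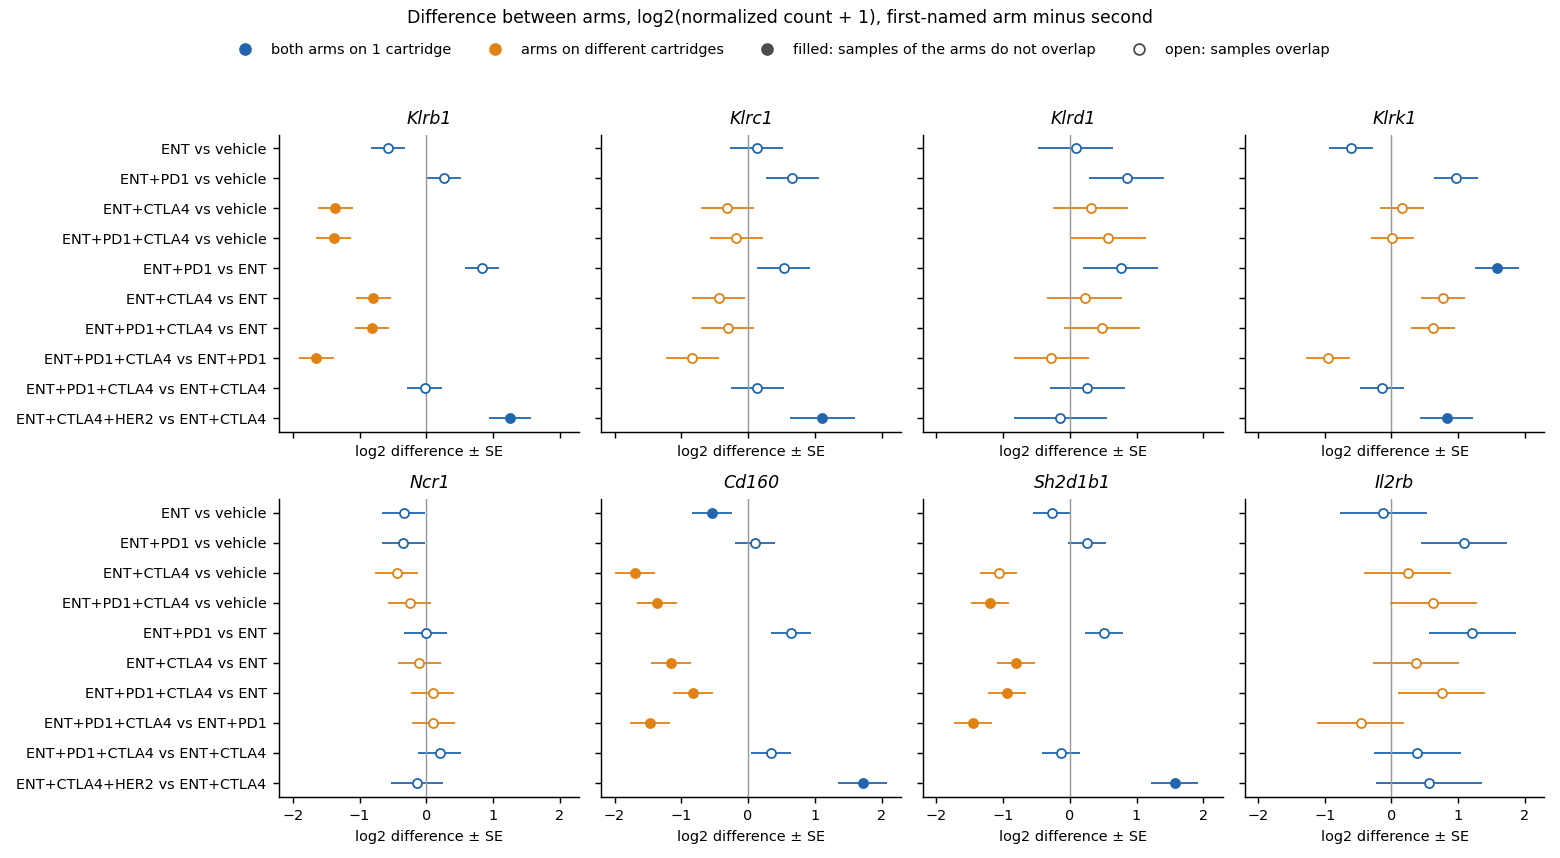
Log2 difference ± SE from the limma fit for each gene in 10 comparisons, first-named arm minus second (blue, both arms on 1 cartridge; orange, different cartridges; filled where no sample of one arm falls among those of the other). Klrb1, Cd160 and Sh2d1b1 lie left of 0 in each comparison of ENT+CTLA4 or ENT+PD1+CTLA4 with vehicle or ENT, and right of 0 for ENT+CTLA4+HER2, while Ncr1 stays between −0.45 and 0.20.

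ENT+PD1 against ENT, on 1 cartridge, had Klrk1 higher by a log2 difference of 1.58 ± 0.33 (SE, n = 4 each). It was 1 of the 8 called, where 0.322% of the genes were, and the only one of the 8 that was higher without overlap, as were 6.12% of the genes. This contrast chose Klrk1 and is a description. As 0 of 4 ENT values were above the background limit, the log2 difference is set against the background and is no measured size. The log2 difference was above 0 for 7 of the 8 genes, near the share over all genes (505 of 621). It was −0.01 for Ncr1 (14.1 ± 4.45 in ENT+PD1 and 13.9 ± 1.89 in ENT). The median of the 8 was 0.70, against 0.34 over the 621 genes, which median rescaling of the samples moved to −0.01. Il2rb averaged 86.7 ± 71.3 in ENT+PD1 and 28.3 ± 11.4 in ENT, a log2 difference of 1.21 ± 0.65, and Klrb1 25.3 ± 8.01 and 13.3 ± 2.33, a log2 difference of 0.83 ± 0.26. ENT+PD1 replicates 5 and 6, where Il2rb was high, had macrophage sums of 5114 and 6763, against 2289 and 2531 in replicates 1 and 2, and epithelial sums of 7004 and 6051, against 8885 and 9365. The 4 ENT samples had 2543 to 2753 and 9029 to 9417, and the part of these cells was not tested. As ratios to the negative probes Klrk1 overlapped, at 2.53 in ENT+PD1 and 1.10 in ENT, and 0 of the 8 were free of overlap, where 0.161% of the genes were higher and 4.03% lower. No gene of the 8 had lower normalized counts without overlap either (0.966% of the genes). Leaving out ENT+PD1 replicate 5 or 6, or ENT replicate 1, 2 or 4, ended the call, as did taking ENT+PD1 by replicates 1 and 2 alone, an alternative chosen after seeing the data. Median rescaling, edgeR and DESeq2 also left 0 calls. Without ENT+PD1 replicate 2, 2 of the 8 were called.

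The remaining 5 comparisons called 0 of the 8 genes in the limma fit, as did edgeR and DESeq2 on the recovered counts. ENT against vehicle did not pass the test (limma adjusted p = 0.999 for each of the 8, 0 of the 621 genes called). In that fit 1 of the 8 and 29 of the 621 genes had an unadjusted p under 0.05. Cd160 was lower in all 4 ENT samples than in any vehicle sample (15.6 ± 0.353 and 23.4 ± 4.07, log2 difference −0.54 ± 0.30), which was so for 5.96% of the genes. Its ratios to the negative probes, 2.16 and 2.50, overlapped. For ENT+PD1 against vehicle the limma adjusted p was 0.470 to 0.872 (1 of the 8 and 60 of the 621 genes at an unadjusted p under 0.05, 0 of the 621 genes called), and 0 of the 8 were free of overlap, where 1.61% of the genes were higher and 0.966% lower. Klrk1 had the lowest, at 26.0 ± 10.7 in ENT+PD1 and 12.1 ± 2.43 in vehicle, and its ratio to the negative probes, 2.53 and 1.31, was higher without overlap, as were 0.805% of the genes. The same ENT+PD1 samples stood in the contrast that chose Klrk1, so nothing is read from this. In vehicle 0 of 4 Klrk1 values were above the background limit, so the difference is set against the background.

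ENT+CTLA4 against ENT gave limma adjusted p-values of 0.104 to 0.943 over the 8 genes (0 of 621 called). Of the 8, 4 had an unadjusted p under 0.05, as had 94 of the 621 genes. Cd160 was lowest, with a log2 difference of −1.16 ± 0.30, and Cd160, Klrb1 and Sh2d1b1 were lower without overlap, as were 5.64% of the genes. None of the 8 was higher without overlap, as 12.7% of the genes were, and on the ratio scale none stayed apart (32.2% of the genes had higher ratios and 0 lower). ENT+PD1+CTLA4 against ENT gave limma adjusted p-values of 0.275 to 0.924 (0 of 621 called). Here 3 of the 8 and 70 of the 621 genes had an unadjusted p under 0.05. Cd160, Klrb1 and Sh2d1b1 were again lower without overlap, where 5.64% of the genes were. None of the 8 was higher without overlap (4.19% of the genes). Sh2d1b1 stayed apart on the ratio scale (2.13 in ENT+PD1+CTLA4 and 2.90 in ENT), as did 0.805% of the genes. Klrk1 had higher ratios without overlap (2.39 in ENT+PD1+CTLA4 and 1.10 in ENT), as had 14.5% of the genes. In both comparisons the arm with CTLA-4 antibody also stood in a contrast that chose the genes, and the arms lay on different cartridges. These p-values and counts are not independent of that choice, and nothing is read from them.

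Within the second cartridge, PD-1 antibody on top of ENT+CTLA4 went with no call and no gene of the 8 free of overlap, where 1.45% of the genes were. The limma adjusted p was 0.9998 for each of the 8, with 0 of 621 called. At an unadjusted p under 0.05 stood 0 of the 8 and 10 of the 621 genes. The log2 differences of ENT+PD1+CTLA4 minus ENT+CTLA4 ran from −0.15 ± 0.33 for Klrk1 to 0.39 ± 0.65 for Il2rb. The interaction of the PD-1 and CTLA-4 antibodies on entinostat was called for 0 of 621 genes in limma (42 at an unadjusted p under 0.05). Among the 8 it was largest in size for Klrk1, at −1.72 ± 0.46 (SE, log2 scale). The interaction holds the difference of ENT+PD1 and ENT, which chose Klrk1, so this value is a description without a p-value.

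Over the 24 samples, Klrb1 was closer to the negative probes than any other of the 621 genes (Pearson r = 0.91 between log2 values), Cd160 was in place 3 (r = 0.89) and Sh2d1b1 in place 18 (r = 0.81), and the median gene had r = 0.13. Within cartridge 2 the values were 0.75, 0.84 and 0.70, and within cartridge 1 they were 0.87, 0.82 and 0.90 (n = 12 each, Spearman rho 0.52, 0.67 and 0.42, and 0.86, 0.86 and 0.90). Without the 2 samples farthest from the median of the negative probes, r was 0.61, 0.72 and 0.43 in cartridge 2 and 0.74, 0.80 and 0.87 in cartridge 1. The values share the scaling factor of their sample, and weak counts lie near the background by their level, so these are descriptions with no p. The median r of the 233 tested genes with a median under 50 was 0.25.

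Among themselves, Klrb1 and Cd160 had r = 0.80 in cartridge 2 and 0.88 in cartridge 1 (rho 0.69 and 0.82), Klrb1 and Sh2d1b1 0.83 and 0.87 (rho 0.65 and 0.83), and Cd160 and Sh2d1b1 0.79 and 0.84 (rho 0.61 and 0.74). Without the 2 samples farthest from the median, r in cartridge 2 was 0.75 for Klrb1 and Cd160, 0.44 for Klrb1 and Sh2d1b1 and 0.39 for Cd160 and Sh2d1b1, and in cartridge 1 it was 0.85, 0.86 and 0.82. The high values with Sh2d1b1 in cartridge 2 thus rest on 2 samples. By Spearman rho over the 24 samples, the nearest of the 621 genes to Klrb1 were Cd160 (0.92), Sh2d1b1 (0.89) and Gfi1 (0.87). For Cd160 they were Klrb1, the Ly49 gene Klra6 (0.88) and the chemokine gene Cxcl11 (0.88), and for Sh2d1b1 Klrb1, Cxcl11 (0.88) and Aire (0.87). The repeat-titled pair was lower than the like-titled ENT+PD1 samples on the first cartridge in Klrb1 (log2 differences −1.12 and −0.52), Cd160 (−1.82 and −0.15) and Sh2d1b1 (−0.78 and −0.18), in 2 samples of open identity. As ratios to the negative probes, Klrb1 had 2.40 and 2.00 in the pair, against 2.46 and 1.80 in the like-titled samples, Cd160 1.40 and 2.50, against 2.46 and 1.70, and Sh2d1b1 3.60 and 3.75, against 2.87 and 2.60. On that scale 4 of these 6 values were higher in the pair.

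**Figure D4:**
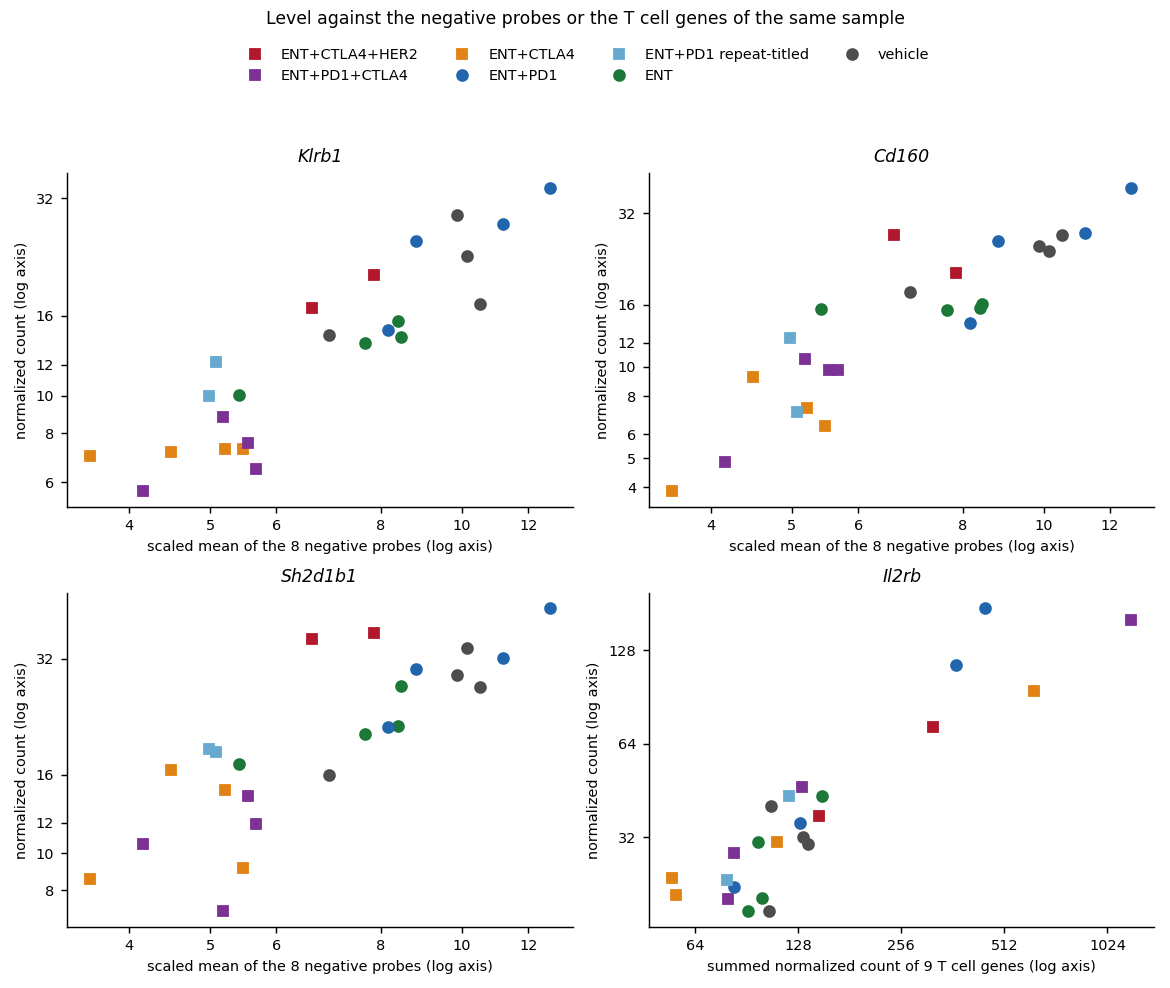
Normalized counts of Klrb1, Cd160 and Sh2d1b1 against the scaled mean of the 8 negative probes of the same sample, and of Il2rb against the summed normalized count of 9 T cell genes, all on log axes (circles cartridge 1, squares cartridge 2, colours by arm). The 3 receptor and adaptor genes climb with the negative probes, and the ENT+CTLA4+HER2 samples lie above the other squares; Il2rb climbs with the T cell genes over the 24 samples.

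Il2rb and the summed T cell genes had r = 0.98 in cartridge 2 and 0.95 in cartridge 1 (n = 12 each, rho 0.92 and 0.80), and r = 0.93 and 0.69 without the 2 samples farthest from the median. For Klrd1 r was 0.91 and 0.76 (0.54 and 0.59 without those 2 samples), for Klrc1 0.71 and 0.76 (0.81 and 0.51), and for Klrk1 0.70 and 0.82 (0.88 and 0.42). For Klrb1, Cd160 and Sh2d1b1 it was 0.08, 0.12 and 0.13 in cartridge 2, but 0.61, 0.86 and 0.73 without the 2 samples farthest from the median, so these low values rest on 2 samples. In cartridge 1 it was 0.67, 0.69 and 0.67 (0.57, 0.57 and 0.69 without 2 samples). The median r of the 621 genes was 0.32 in cartridge 2 and 0.58 in cartridge 1. The T cell sum was 1203 in ENT+PD1+CTLA4 replicate 1, 627 in ENT+CTLA4 replicate 6, 448 in ENT+PD1 replicate 6 and 371 in ENT+PD1 replicate 5, the samples with the highest Il2rb, and 318 in ENT+CTLA4+HER2 replicate 2. It was 54.8 to 150 in the other 19. The nearest genes to Il2rb by rho were the T cell costimulator Icos (0.91), the chemokine receptor Ccr7 (0.90) and the T cell receptor chain Cd3e (0.87), to Klrd1 Irf4 (0.78), Cd3e (0.77) and Nlrc5 (0.75), to Klrc1 Cd3d (0.80), Ctla4 (0.79) and the B cell gene Ms4a1 (0.78), and those to Klrk1 included Batf (0.74) and Cd247 (0.71). For Ncr1 they included Spn (0.72) and H60a (0.67).

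Lists of genes that act with these receptors held 3 to 8 tested genes, and with 0 to 3.22% of the 621 genes called in a comparison, a count of 0 in so short a list is near the background. Of the cytotoxic effectors, 3 of 8 on the panel passed the filter (Gzma, Ifng and Tnfsf10) and 0 were called in any of the 10 comparisons. Gzma, a granzyme of NK and T cells, had a median of 21.9, and Prf1 (perforin) 5.01, at the level of the negative probes. Of the ligands and their receptors, 8 of 10 were tested and 0 called. The class I genes H2-D1 and H2-K1 had medians of 3619 and 1176, H2-T23, whose product presents to the Klrd1-Klrc1 dimer, 138, the NKG2D ligand H60a 37.0, and Tnfrsf14, the ligand of Cd160, 29.3. In the adaptors and kinases, with Cd247 also on the T cell list, 6 of 7 were tested and 0 called, with Hcst, the partner of NKG2D, at a median of 11.9. In the cytokine axis of Il2rb 6 of 8 were tested and 0 called, with Il2rg at 45.6, while Il15 (11.4) and Il2 (5.65) were left out by the filter. Of the NK-activating cytokines and their receptors 3 of 9 were tested and 0 called.

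Genes on the other NK lists ranged from background to well above it, and which cells their signal came from was not tested. Of the 12 Ly49 probes 7 were tested, and 1 was called lower in ENT+CTLA4 against vehicle (Klra6) and in ENT+PD1+CTLA4 against vehicle and against ENT+PD1 (Klra7 in both). The median log2 difference of the 7 was −1.09, −0.91 and −1.07 in these comparisons, against −0.06, −0.06 and −0.25 over all genes. For ENT+CTLA4+HER2 minus ENT+CTLA4 it was 1.15, against 0.17. The comparisons with Ly49 calls were across cartridges, and the background differed in the same direction. By arm mean, the scaled negative probes were 4.69 against 9.36, 5.14 against 9.36 and 5.14 against 10.2, in the order given. For the HER2 comparison they were 7.24 against 4.69. Klra6 and Klra7 lay above the background limit in 10 and 8 of 24 samples. The part of the background in these differences was not tested. Eomes, Tbx21 and Klrg1, transcription factors and a receptor of mature NK and effector T cells, had medians of 9.35, 11.8 and 12.6 and did not pass the filter. The other three genes of that list did, with 0 called: Gata3, a transcription factor that T cells and mammary epithelium also use, had a median of 264 and lay above the background limit in 24 of 24 samples, Il7r 20.9 (21 of 24) and Itga2 15.4 (14 of 24). The Ly49 probe Klra2, at 37.0 and above the limit in 24 of 24, had a higher median than any of the 8 genes. Of the 9 T cell genes 7 were tested and 0 called. Among markers of other cells, the dendritic cell gene Xcr1 was called lower in ENT+CTLA4 against vehicle and the epithelial gene Itgb4 lower in ENT+CTLA4+HER2 against ENT+CTLA4. The tumour marker Epcam had a median of 5763 and the macrophage marker Csf1r 487.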

How the data were processed

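RNA of 24 tumour samples was counted on nCounter cartridges. Sources differ on the panel (PanCancer Immune in the title, a myeloid one in the protocol), and the 770 genes listed were taken as given. The deposited values are a normalized signal on a linear scale: dividing each sample by 1 factor returned whole counts for 100% of the 18398 values above 1 (tolerance 0.05), and 82 values stood at exactly 1. Rows of control probes held plain counts in the deposited table and were multiplied by the factor of their sample here. The submitters' processing notes name limma, and how the authors normalized the signal is not stated in the labels. In the deposited values the geometric mean of the 20 housekeeping genes was 346.9 in each of the 24 samples, so the factors set these genes level.

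The filter asked for a value of 20 or more in 4 or more samples and kept 621 of 770 genes. Limma 3.58.1 (R 4.3.3; lmFit, eBayes with trend) was fitted to log2(value + 1) of 22 samples in 6 arms, with Benjamini-Hochberg adjustment over the 621 genes. EdgeR 4.0.16 and DESeq2 1.42.0 on the recovered counts were alternatives, beside other scalings, a pseudocount of 5, no filter, a floor of 20, background subtraction, blocks for cartridge and replicate number, and leaving out each sample. The limma fit was tested on simulated counts with known changes, in the contrast of ENT with vehicle. The other steps were not tested in this way. Replicate numbers did not pair samples: over 40 pairs of samples with like numbers the median correlation was −0.033 (from −0.453 to 0.634). The genes and lists were chosen with earlier results of these data known. All 8 genes are given in every sample; the genes set beside them are the 3 with the highest Spearman rho to each (for Klrk1 and Ncr1, 1 of them is not reported here), and of each list those called in a comparison and some of the 3 strongest; others named from a list were chosen after their values were seen. Promoter windows came from RefSeq (GRCm38.p6).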

Additional observations from a re-analysis of the deposited data

Results flagged for a closer look

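In 4 of the 40 groups of 4 samples (8 genes in 5 arms), 1 sample stood apart from the other three by more than Dixon's 95% limit, where chance gives about 1 in 20. Il2rb was high in ENT+CTLA4 replicate 6, at 94.8 against 20.8 to 30.8. Klrd1 was high in ENT+PD1+CTLA4 replicate 1, at 50.8 against 8.65 to 13.0. Ncr1 was high in ENT+PD1 replicate 6, at 20.8 against 11.4 to 12.6. Cd160 was low in ENT+PD1+CTLA4 replicate 5, at 4.87 against 9.73 to 10.6. The first 3 of these samples were also among those with the highest sums of T cell genes (627, 1203 and 448), and the fourth had the lowest scaled negative probes of its arm (4.16); their part in these values was not tested.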

How the results depend on the processing

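All 21 log2 differences of genes whose arms did not overlap kept their sign under their 242 alternatives (171 kept the side of the threshold and 71 lost it). As these arms did not overlap, leaving out a sample or a pseudocount of 5 could not reverse a sign. Only the other scalings and background subtraction could have done so. Counts of called genes among the 8 did not keep. For ENT+CTLA4 against vehicle (2 called) the count was 0 under quantile normalization, a floor of 20, a fit of only the arms compared, the repeat-titled pair added, the cartridge block and the replicate block, and 1 with negative probes subtracted. For ENT+PD1+CTLA4 against vehicle (3 called) it was 0 under median rescaling, quantile normalization, the floor, subtraction, edgeR, DESeq2, only the arms compared, the pair added, the cartridge block and the replicate block. For ENT+PD1 against ENT (1 called) it was 0 under the same except the cartridge block, and 0 with ENT+PD1 by replicates 1 and 2 alone. For ENT+PD1+CTLA4 against ENT+PD1 (3 called) it was 0 under both scalings, the floor, DESeq2, only the arms compared, the cartridge block and replicates 1 and 2 alone, and 1 under subtraction and edgeR; the replicate block left 3. For ENT+CTLA4+HER2 against ENT+CTLA4 (3 called) it was 0 under both scalings, only the arms compared and the replicate block, and 1 under the floor, subtraction and the pair added. ENT+CTLA4 against ENT (0 called) had 1 when only those arms were fitted. Leaving out single samples gave 0 to 3, 0 to 3, 0 to 2, 1 to 4 and 0 to 2 calls in the first 5 comparisons named, and 0 in the others. The cause was not tested. Over all 621 genes, calls in these 5 comparisons (9, 13, 2, 20 and 14) were 12, 0, 0, 0 and 0 under median rescaling, 0, 0, 0, 1 and 0 under quantile normalization, 9, 0, 0, 1 and 16 in edgeR, and 21, 0, 1, 0 and 23 in DESeq2, which also called 15 in ENT+CTLA4 against ENT.

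The 120 values above the background limit were 88 at mean plus 3 SD, 138 above the highest negative probe, 97 above a limit pooled over samples (15.5), and 112 to 118 without single samples. Counts of 4 to 47 for Klrd1, 6 to 29 for Klrb1 and 5 to 33 for Cd160 limit what can be measured, and intervals from them would cover counting error only. The arms on different cartridges could not be separated from the cartridge except through the repeat-titled pair.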
